A study of Oryza sativa Japonica Group with 6 samples.

Results

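The rice genes named GER1 to GER8 encode germin-like proteins, and their transcripts were followed in plants with raised, normal or lowered OsSKIPa. Members were the probe sets that the platform's probe table assigns to a single gene with a name GER1 to GER8 in the gene table. All 8 genes were found, out of 17905 genes with a probe set of their own, and they had 10 of the 57381 probe sets on the array. GER8 had 3 probe sets and each other gene had 1. The names were taken as given in the gene table, where the main symbols of these genes are locus numbers (GER3, for example, is LOC4344838).

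Germins and germin-like proteins are secreted glycoproteins of the cupin superfamily that sit mostly in the cell wall. The germins of wheat and barley are oxalate oxidases, which release hydrogen peroxide from oxalate, and several germin-like proteins of other kinds have superoxide dismutase activity. In rice, germin-like genes clustered on chromosome 8 have been linked to quantitative resistance against the blast fungus.

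The 6 arrays came from 1-month-old plants (Oryza sativa, Japonica Group) in 3 groups of 2. The line S58S overexpresses OsSKIPa, called a splicing factor in the series title, and was selected as seedlings on 50 mM hygromycin. In the line S59R, OsSKIPa is suppressed, and its seedlings were selected on 50 mM G418. The wild type was the cultivar Zhonghua11, with no selection drug named, so line and drug cannot be told apart. All seedlings moved to hydroponic medium at 10 days. The promoters and the number of transformants behind each line are not given in the sources used here. Suppression replicates are numbered 1 and 3. Both shoot and whole plant appear in the labels as the material.

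Every array had the same trimmed mean signal, 500.06, and array medians lay between 58.4 and 66. OsSKIPa itself was not analysed here, so the lines were not checked against the targeted transcript. All 5 leaf and shoot markers with a probe set lay above the array median in every array, and between 4 and 6 of the 7 root markers did. For 18S rRNA, the control probe set read 3673.9 and 3885.3 with suppression and between 4949.6 and 5450.5 in the other 4 arrays. The ratio of 3' to 5' actin signal was 3.43 and 3.73 in the overexpression line and between 2.75 and 2.89 elsewhere. For GAPDH the same ratio overlapped, at 2.19 and 1.89 in the overexpression line and between 1.66 and 1.90 elsewhere. In plant samples of this kind, fewer cells of a type and less RNA per cell cannot be told apart. With 2 arrays a group, p-values rest on a spread shared by all 3 groups, and the number of arrays limits the precision of each value.

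All 10 GER probe sets lay above the array median in all 6 arrays, so each of them was tested. Values are linear signal intensities. Differences are on the log2 scale after adding 3.3 to each value, and adjusted p-values come from a limma fit over all 30366 tested probe sets.

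GER3 had a lower signal in the suppression line than in the other plants. Its probe set read 170.6 and 244.9 in the suppression line, 419.9 and 456.1 in the wild type, and 455 and 491.6 with overexpression. Both suppression arrays lay below all 4 others, and the overexpression and wild-type arrays overlapped. Against the wild type, GER3 fell by 1.09 ± 0.20 (SE) on the log2 scale in the suppression line, a 2.12-fold lower level (adjusted p = 0.0351). The overexpression line differed from the wild type by 0.11 ± 0.20 (adjusted p = 0.938), with a 95% interval from -0.35 to 0.57.

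The call on GER3 in the suppression line was not firm. It held without suppression replicate 3 (adjusted p = 0.0286) and was lost without any other single array. Leaving out suppression replicate 1 gave an adjusted p of 0.113, and leaving out wild-type replicate 1 or 2 gave 0.129 or 0.183. With overexpression replicate 1 or 2 left out it was 0.0593 or 0.0594. The estimate stayed between -1.34 and -0.83 in these fits.

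**Figure D1:**
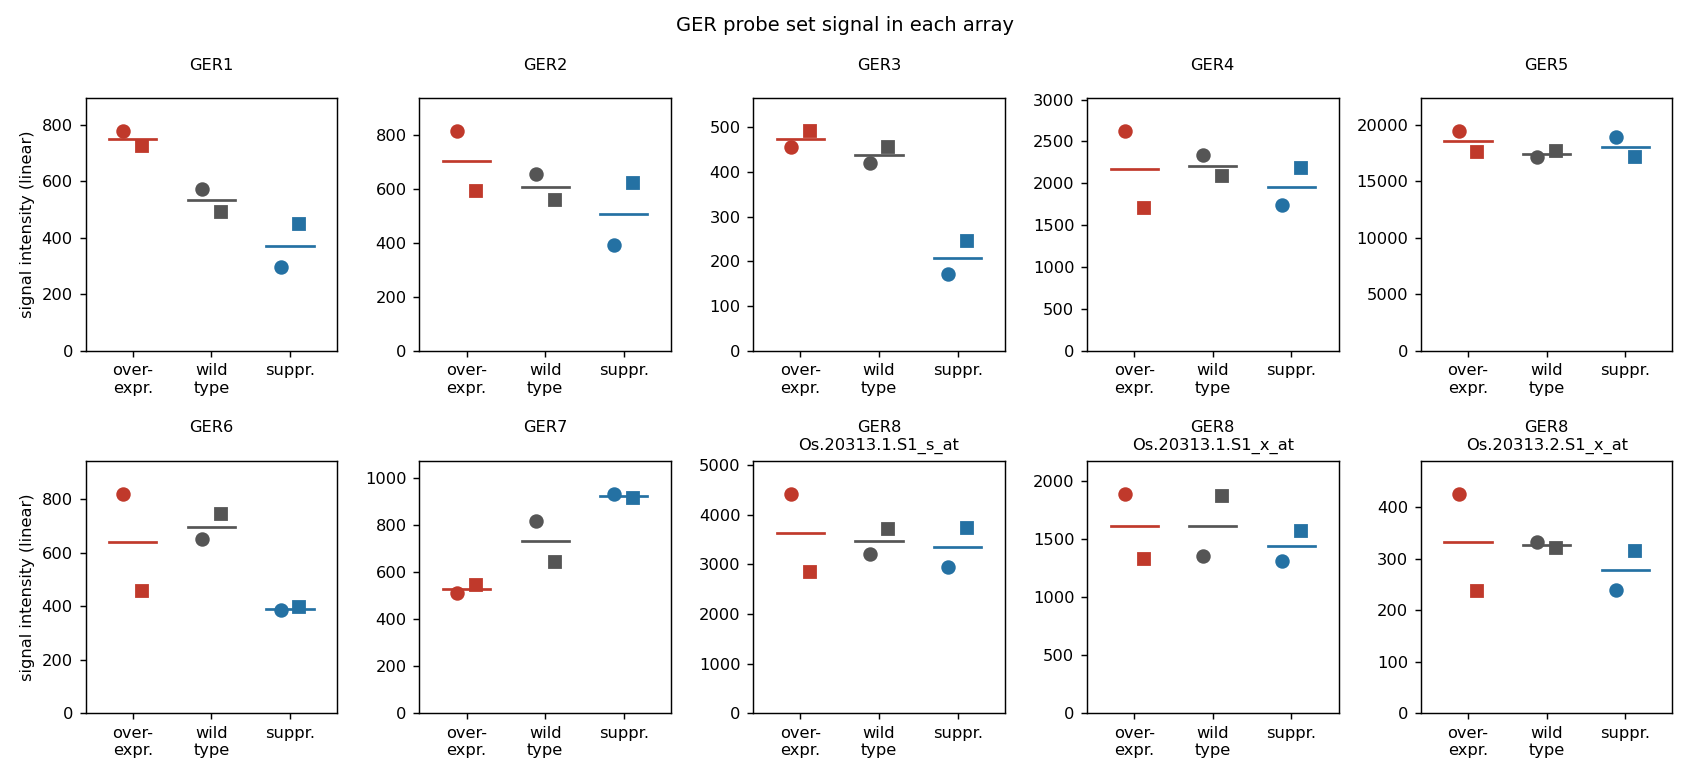
Signal intensity (linear, axis from 0) of the 10 GER probe sets in each array, by group. Circles are the lower-numbered replicate and squares the higher-numbered one, and lines are means of 2 arrays. GER3 reads at most 244.9 in the suppression line and at least 419.9 elsewhere, while GER7 runs the other way, from 511.6 and 546.5 with overexpression to 935.4 and 916.2 with suppression.

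GER1 was ordered by line, highest with overexpression and lowest with suppression, and none of the 3 groups overlapped. It read 777.5 and 723.5 with overexpression, 571.8 and 490.9 in the wild type, and 295.4 and 447.7 in the suppression line. Neither step away from the wild type passed the threshold over all probe sets. The difference was 0.50 ± 0.21 for overexpression (adjusted p = 0.692) and -0.54 ± 0.21 for suppression (adjusted p = 0.226). The lines differed from each other by 1.04 ± 0.21, a 2.05-fold higher level with overexpression (adjusted p = 0.0255). An order of this kind, with overexpression above and suppression below both wild-type arrays, was found in 5.12% of all tested probe sets.

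GER7 ran opposite to GER1. It read 511.6 and 546.5 with overexpression, 819.6 and 646 in the wild type, and 935.4 and 916.2 in the suppression line, again with no overlap between groups. The transgenic arrays of each line were close together, and the wild-type arrays were the most spread. Against the wild type the difference was -0.46 ± 0.15 with overexpression (adjusted p = 0.629) and 0.35 ± 0.15 with suppression (adjusted p = 0.274), and neither passed. Between the lines it was -0.80 ± 0.15, a 1.75-fold higher level with suppression (adjusted p = 0.0205). The opposite order to that of GER1 was found in 4.6% of all tested probe sets.

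GER6 was low in the suppression line and uneven in the overexpression line. Its signal was 386.8 and 396.5 with suppression, 652.6 and 743.6 in the wild type, and 821.7 and 456.3 with overexpression. Both suppression arrays lay below all others, and the overexpression arrays, 1.80-fold apart, lay on either side of the wild type. The suppression line differed from the wild type by -0.83 ± 0.25 (adjusted p = 0.14), which did not pass. It passed at the same estimate when overexpression replicate 1 (adjusted p = 0.0464), overexpression replicate 2 (0.0418) or both overexpression arrays (0.0447) were left out of the fit. Overexpression differed from the wild type by -0.18 ± 0.25 (adjusted p = 0.91) and from suppression by 0.64 ± 0.25 (adjusted p = 0.17). The latter became 1.06 without overexpression replicate 2 (adjusted p = 0.0413) and 0.22 without overexpression replicate 1.

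GER2 showed overlapping groups in all comparisons. It read 816.1 and 594 with overexpression, 655.3 and 557.8 in the wild type, and 393.4 and 621.1 in the suppression line. The means fell in the same order as for GER1, but replicates of 1 transgenic line differed by up to 1.58-fold. Against the wild type the difference was 0.20 ± 0.24 with overexpression (adjusted p = 0.893) and -0.29 ± 0.24 with suppression (adjusted p = 0.587). Between the lines it was 0.49 ± 0.24 (adjusted p = 0.266), with a 95% interval from -0.06 to 1.04.

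GER4 gave 2625.5 and 1708.5 with overexpression, 2333.9 and 2080.9 in the wild type, and 1742.9 and 2176.8 with suppression. The overexpression arrays held both the highest and the lowest of the 6 values. Its differences from the wild type were -0.06 ± 0.20 with overexpression (adjusted p = 0.975) and -0.18 ± 0.20 with suppression (adjusted p = 0.698), with 95% intervals from -0.52 to 0.40 and from -0.64 to 0.28. The lines differed by 0.12 ± 0.20 (adjusted p = 0.77).

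GER5, also named OsGLP1 in the gene table, was the steadiest member. It read 19475.7 and 17628.5 with overexpression, 17175.7 and 17692.5 in the wild type, and 18924.9 and 17178.4 in the suppression line. The highest of the 6 values was 1.13 times the lowest, and the groups overlapped. The difference from the wild type was 0.09 ± 0.08 with overexpression (adjusted p = 0.86) and 0.05 ± 0.08 with suppression (adjusted p = 0.808). The 95% intervals ran from -0.10 to 0.27 and from -0.14 to 0.24, so a 2-fold change (1 on the log2 scale) lay outside both.

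The 3 probe sets of GER8 gave no call in any comparison. The brightest, whose ID ends in _s_at, read 4427.9 and 2855.9 with overexpression, 3218.6 and 3712.8 in the wild type, and 2949 and 3744.1 with suppression. The brighter of those ending in _x_at read 1889.9 and 1325, then 1352.1 and 1868, then 1310.8 and 1571.6 in the same groups. The dimmer of them read 425.9 and 237.6, then 331.5 and 319.9, then 239.7 and 314.2. In each of them the overexpression replicates stood 1.43-fold to 1.79-fold apart, and replicate 1 was the highest array. Differences from the wild type lay between -0.24 and 0.04 over both lines. Between the lines they lay between 0.10 and 0.21. By the manufacturer's naming, probe sets ending in _s_at or _x_at hold probes that can match more than 1 transcript.

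**Figure D2:**
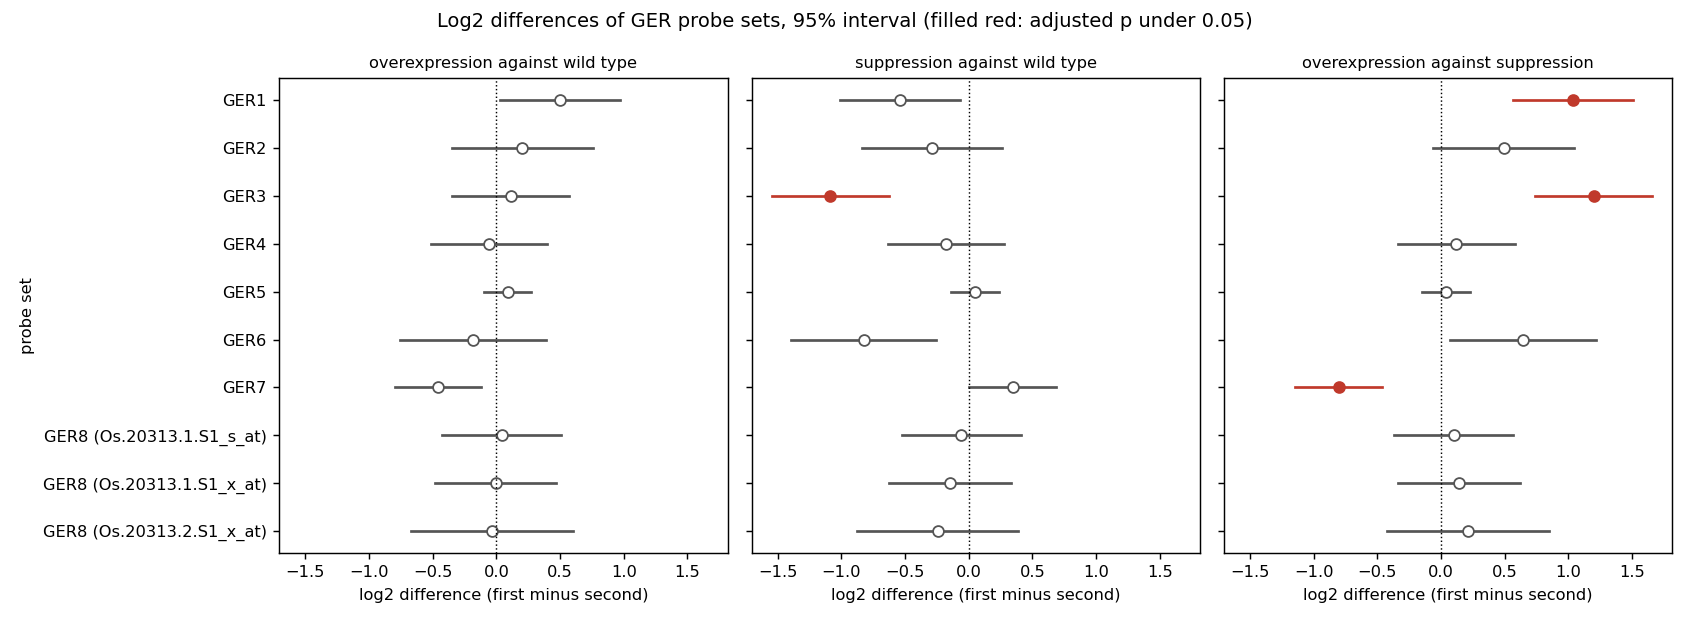
Log2 difference of each GER probe set (points) with its 95% interval (bars) in the 3 comparisons, from the fit on all 6 arrays. Filled red points have an adjusted p under 0.05. GER3 is the only one below the wild type in the suppression line by that measure, and GER1, GER3 and GER7 differ between the lines.

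Counted over the comparisons, the overexpression line against the wild type gave 0 calls by limma among the 10 GER probe sets, with 2 at an unadjusted p under 0.05 (GER1 and GER7). Over all probe sets 0.0494% were called in that comparison and 7.11% had an unadjusted p under 0.05. GER1 lay wholly above both wild-type arrays, as 18.9% of all tested probe sets did, and GER7 wholly below, as 19.2% did. The median difference of the 8 genes, with the brightest probe set of each, was 0.06, against -0.01 over all tested probe sets.

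In the suppression line against the wild type, 1 of 10 GER probe sets was called, GER3, where 2.3% of all tested probe sets were called and 1.34% were called lower. An unadjusted p under 0.05 was reached by 4 of 10, against 17.8% of all tested. The probe sets of GER1, GER3 and GER6 and the dimmest of GER8, 4 of 10, lay wholly below the wild-type arrays, where 25.5% of all tested probe sets did. GER7 lay wholly above, as 23.2% did. The median over the 8 genes was -0.23, against -0.02 over all tested probe sets. Of the 8 genes, 6 had a negative and 2 a positive difference.

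Between the transgenic lines, 3 of 10 GER probe sets were called, GER1 and GER3 higher and GER7 lower with overexpression, where 6.56% of all tested probe sets were called, 3.63% higher and 2.93% lower. An unadjusted p under 0.05 was reached by 4 of 10, against 23.1% of all tested. GER1, GER3 and GER6 lay wholly above the suppression arrays and GER7 wholly below, where 27.2% and 26.2% of all tested probe sets did. GER3 differed by 1.20 ± 0.20, a 2.29-fold higher level with overexpression (adjusted p = 0.0149). All 3 calls held when either wild-type array was left out. All 3 were lost without overexpression replicate 1, overexpression replicate 2 or suppression replicate 1, and GER7 was also lost without suppression replicate 3. Their adjusted p-values in the fits that lost them lay between 0.0557 and 0.112. The estimates kept their sign, from 0.74 to 1.33 for GER1, from 0.94 to 1.45 for GER3 and from -0.85 to -0.76 for GER7. Without the trend of variance on mean in the limma fit, none of the 3 passed (adjusted p = 0.122, 0.092 and 0.103), with 3 GER probe sets at an unadjusted p under 0.05.

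Tissue markers were read in the same comparisons as the GER calls. In the suppression line against the wild type, 0 of 5 leaf and shoot marker genes were called by limma on their brightest probe sets. Over all tested probe sets 2.3% were called. Of the 5 genes, 3 had an unadjusted p under 0.05, against 17.8% of all tested. The same 3 lay wholly below the wild type, where 25.5% of all tested probe sets did. On those probe sets GLK1 read -0.99 (adjusted p = 0.0566), GLK2 -0.36 (adjusted p = 0.141) and rca -0.29 (adjusted p = 0.0986) there. The other genes, rbcS and CAB2R, read 0.05 (adjusted p = 0.791) and -0.005 (adjusted p = 0.98). Of the dimmer probe sets of rbcS, the 2 tested both read -0.51 (adjusted p = 0.0738 and 0.0691). Of the dimmer probe sets of GLK2, 1 was called lower (-1.42, adjusted p = 0.0409) and another read 0.24 (adjusted p = 0.451). Root markers had 0 calls in that comparison, with 2 of 6 at an unadjusted p under 0.05, against 17.8% of all tested probe sets. Between the transgenic lines, 3 of the 5 leaf and shoot marker genes were called higher with overexpression and 0 lower. Over all tested probe sets 3.63% were called higher and 2.93% lower. The 3 were GLK1 (1.22, adjusted p = 0.0169) and GLK2 (0.63, adjusted p = 0.0174), regulators of chloroplast development, and rca (0.37, adjusted p = 0.0266), the Rubisco activase gene. The other genes, rbcS and CAB2R, read -0.13 (adjusted p = 0.386) and -0.01 (adjusted p = 0.954) between the lines. Dimmer probe sets of GLK2 read -0.06 (adjusted p = 0.851), 1.34 (adjusted p = 0.028) and 0.76 (adjusted p = 0.246). The dimmer tested probe sets of rbcS read 0.48 (adjusted p = 0.0538) and 0.47 (adjusted p = 0.0541). The summed signal of the 5 genes was 85412.4 and 90308.4 with overexpression, 86252.5 and 78946 with suppression, and 84880.4 and 89679.4 in the wild type. Of the 6 tested root markers, 5 read lower and 1 higher with overexpression, with a median of -1.45, against 0.01 over all tested probe sets. Wholly below the suppression arrays lay 4, and wholly above lay 1, where 26.2% and 27.2% of all tested probe sets did. Among those reading lower, NAS2 (-2.00, adjusted p = 0.288) and NAS1 (-1.83, adjusted p = 0.319) differed widely between the suppression arrays. They read 840.8 and 410.3 in suppression replicate 1, and 60.2 and 43 in suppression replicate 3. Called were the ammonium transporter gene AMT1-2, lower with overexpression (-2.54, adjusted p = 0.00241), and the iron transporter gene IRT1, higher (1.36, adjusted p = 0.0198). The summed signal of 7 root markers was 4778.4 and 5883.6 with overexpression, 11394.4 and 7518.7 with suppression, and 10026.7 and 6504.3 in the wild type. The part of tissue make-up, of the 18S signal or of the actin ratio in the GER differences was not tested.

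Single arrays stood out among the GER probe sets. Overexpression replicate 1 was the highest of the 6 arrays for 8 of the 10 GER probe sets, whereas it was the highest for 16.3% of all tested probe sets. Suppression replicate 1 was the lowest for 5 of 10, against 21% of all tested. The 8 are not independent, since 3 of them belong to GER8. GER3 and GER7 were not among the 8.

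**Figure D3:**
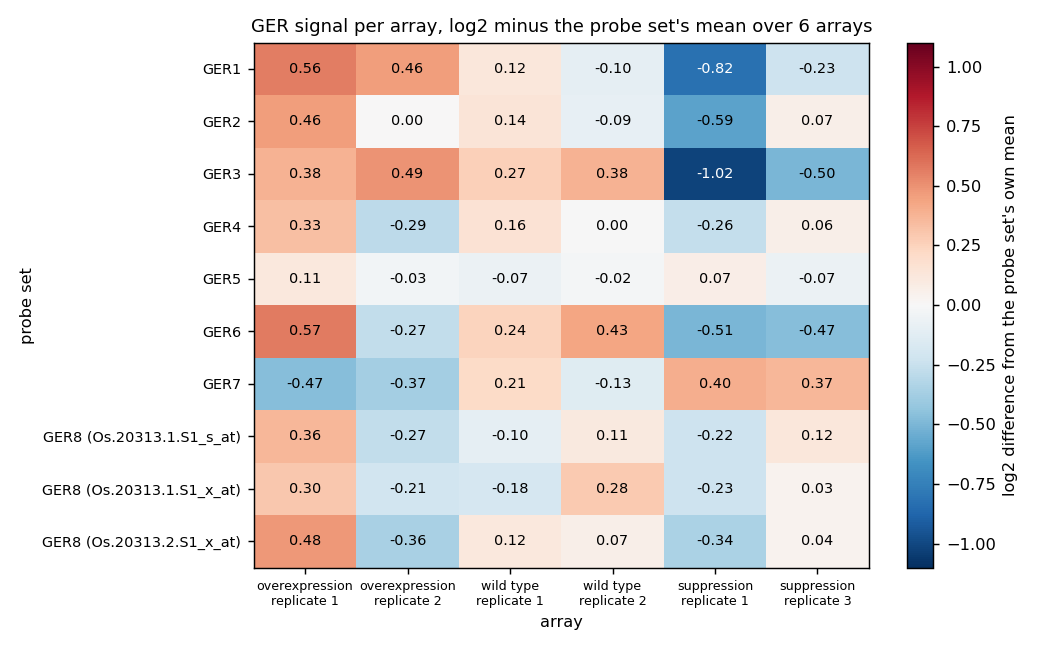
Log2 signal of each GER probe set (rows) in each array (columns), minus that probe set's own mean over the 6 arrays. Red is above and blue below the mean, and the printed numbers are the log2 differences. GER3 reaches -1.02 and -0.50 in the suppression arrays, and overexpression replicate 1 is above the mean for every row but GER7.

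In the gene table (assembly ASM3414082v1, used for names and order), GER3, GER2 and GER1 are direct neighbours on chromosome 8, and GER6 follows after 2 other genes. GER5 lies elsewhere on chromosome 8, GER4 and GER8 are on chromosome 1, and GER7 is on chromosome 3. The 4 neighbouring genes read between -1.09 and -0.29 in the suppression line against the wild type, with a median of -0.68 and 3 of 4 wholly below the wild type, where 25.5% of all tested probe sets were. The other 4 genes read between -0.18 and 0.35 there, with a median of -0.004 and 0 of 4 wholly below, taking the brightest probe set of GER8. With overexpression the neighbouring genes read between -0.18 and 0.50 and the others between -0.46 and 0.09. This grouping was made after the values were seen and was not tested. Related neighbours can share sequence, and cross-hybridisation between them was not tested.

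A further germin-like gene, named GLP2, RGLP1 and RGLP2 in the gene table (LOC4344846), stands 4 places beyond GER6 on chromosome 8. Its brighter probe set read 460.1 and 350.7 in the wild type, 192.2 and 281.9 with overexpression, and 201.5 and 129.3 in the suppression line. Both lines lay below both wild-type arrays, as 6.41% of all tested probe sets did. The differences, which share the wild-type arrays, were -0.78 ± 0.28 with overexpression (adjusted p = 0.662) and -1.30 ± 0.28 with suppression (adjusted p = 0.0613). Its dimmer probe set overlapped between groups, with -0.42 ± 0.38 (adjusted p = 0.857) and -0.57 ± 0.38 (adjusted p = 0.487). The neighbouring gene LOC112935981 carries the names GLP2 and RGLP2 as well, so which of them these probe sets match is uncertain.

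**Figure D4:**
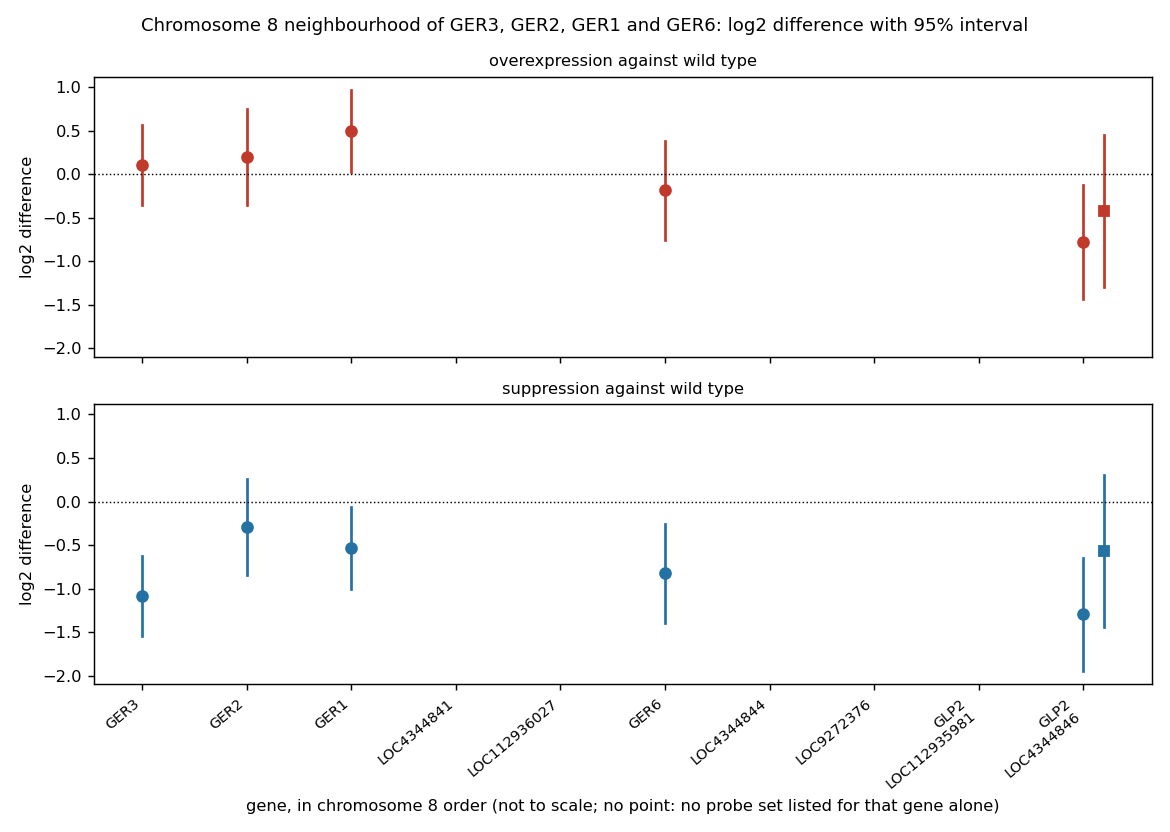
Log2 difference (points) with 95% interval (bars) against the wild type for overexpression (top) and suppression (bottom), with genes in their order on chromosome 8, not to scale. A square is a second probe set of the same gene. In the suppression line all 6 estimates, 2 of them of GLP2, lie below 0, from -1.30 (GLP2) to -0.29 (GER2). They share the same arrays, and 15802 of 30366 tested probe sets lie below 0 there. The bars of GER2 and of the second GLP2 probe set include 0. In the overexpression line the estimates run from -0.78 (GLP2) to 0.50 (GER1).

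Genes of hydrogen peroxide and superoxide metabolism, the chemistry in which germins act, gave no calls against the wild type and 2 between the lines when each gene was read by its brightest probe set. The 4 superoxide dismutase genes, whose enzymes turn superoxide into hydrogen peroxide, had 0 calls by limma in all comparisons. They had 1, 0 and 3 at an unadjusted p under 0.05 for overexpression against the wild type, suppression against the wild type and the lines against each other, where 7.11%, 17.8% and 23.1% of all tested probe sets did. Their medians in that order were -0.09, 0.04 and -0.19. The NADPH oxidase gene RBOHB, whose enzyme makes superoxide at the plasma membrane, read 0.12 (adjusted p = 0.855) with overexpression and 0.40 (adjusted p = 0.11) with suppression. Between the lines it read -0.28 (adjusted p = 0.175). Its unadjusted p was under 0.05 with suppression and between the lines, as for 17.8% and 23.1% of all tested probe sets.

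Of 9 catalase and ascorbate peroxidase genes, which remove hydrogen peroxide, 0 were called by limma against the wild type in either line. An unadjusted p under 0.05 was reached by 0 (overexpression) and 2 (suppression), against 7.11% and 17.8% of all tested probe sets. Between the lines 2 of 9 were lower with overexpression, where 2.93% of all tested probe sets were called lower and 6.56% in either direction. They were APX6 (-0.48 ± 0.10, adjusted p = 0.0333) and APX7 (-0.74 ± 0.16, adjusted p = 0.0366). The brightest probe set of APX2 read -0.35 (adjusted p = 0.0545), and 2 of its other probe sets passed, at -1.44 (adjusted p = 0.00897) and -0.69 (adjusted p = 0.0106). For catA, a catalase gene, the brightest probe set read 0.32 (adjusted p = 0.0687) and did not pass. Its 2 dimmer probe sets passed in the other direction, higher with overexpression, at 0.32 (adjusted p = 0.0401) and 0.57 (adjusted p = 0.0406). The list's median between the lines was -0.08, against 0.01 over all tested probe sets. On their brightest probe sets 4 of the 9 genes had an unadjusted p under 0.05 between the lines, against 23.1% of all tested. The 2 class III peroxidase genes with a matching name, PRX74 and PRX112, had 0 calls by limma. Against the wild type 0 (overexpression) and 1 (suppression) had an unadjusted p under 0.05, against 7.11% and 17.8% of all tested probe sets. Between the lines 1 had, against 23.1% of all tested. Their medians were -0.02, 0.39 and -0.41 in the same order as above. With suppression against the wild type PRX112 read 0.87 and PRX74 -0.09, and between the lines they read -0.85 and 0.03. The dimmer probe set of PRX112 read -0.19 (adjusted p = 0.687) and -0.26 (adjusted p = 0.496) in these comparisons.

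For each GER probe set, the named genes with the nearest pattern were ranked by the root mean square difference of their 6 log2 values, each centred on its own mean, among 2777 candidate probe sets (2775 for GER8). Nearest to GER1 were PAL06 at 0.07, CKX11 at 0.09 and OsPP2C39 at 0.11, where GER1 itself varied by 0.46 around its mean. Nearest to GER3, which varied by 0.56, were OsSUS4 at 0.11, IVD at 0.15 and OsCASPL1U2 at 0.16. ASB1 at 0.06, MADS27 at 0.08 and NAC071 at 0.10 were nearest to GER7, which varied by 0.35. CAD8A was nearest to GER6 at 0.15, MAN1 to GER2 at 0.10, EXPB17 to GER4 at 0.08 and PHR2 to GER5 at 0.02. GER6, GER2, GER4 and GER5 themselves varied by 0.43, 0.31, 0.22 and 0.07. With 6 arrays and this many candidates, small differences of this kind are a description of these arrays.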

How the data were processed

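RNA of 6 rice plant samples was hybridised as biotin-labelled cRNA, from 6 µg of total RNA, to Affymetrix rice arrays, per the labels' protocols. The deposited values are signal intensity, 1 per probe set and array, made with summarising software not given in the sources used here. Equal trimmed means (2% at either end) show that arrays had been put on 1 scale before deposit, so a change in total RNA cannot be seen. Groups came from sample titles.

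The 123 control probe sets were left out. Tests covered probe sets above the array's own median in at least 2 arrays (over probe sets other than controls). This kept 30366 and left out 26892. Values were taken as log2(value + 3.3), 3.3 being the 10th percentile of all values, which understates changes of dim probe sets. limma 3.58.1 in R 4.3.3 fitted 3 groups (lmFit, eBayes with trend, 3 residual degrees of freedom), two-sided, with Benjamini-Hochberg adjustment over all tested probe sets and a threshold of 0.05. In 1 simulated data set with known changes, the fit gave every changed probe set its right sign but did not call all of them. False calls made up a larger share of its calls than the threshold allows on average. Where nothing more is said, errors are SE.

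Of the probe sets other than controls, 22436 had 1 gene in the probe table, 95 had several and 34727 were unnamed here. Members and gene lists were chosen with earlier results of these data known. Named are all GER probe sets, at most 4 called members of each list and comparison and up to 3 nearest genes by pattern. Outside this rule, RBOHB, PRX74 and PRX112 are named as the sole measured genes of their lists. All 5 leaf and shoot marker genes with a probe set are named for suppression against the wild type and between the lines. These leaf and shoot values, those of NAS1 and NAS2, and further probe sets of APX2, catA, GLK2, PRX112 and rbcS, were chosen after the values were seen. GLP2 was the sole gene with a probe set on the list of other germin genes. Alternatives changed the scaling, pseudocount, filter, variance trend, arrays fitted and replicate block. Counts per list use the brightest probe set of a gene. No sequences of these genes were used here.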

Additional observations from a re-analysis of the deposited data

Results flagged for a closer look

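GER1, GER3 and GER7 differed between the 2 transgenic lines by the test of that difference itself. The log2 difference of overexpression minus suppression was 1.04 for GER1 (adjusted p = 0.0255), 1.20 for GER3 (adjusted p = 0.0149) and -0.80 for GER7 (adjusted p = 0.0205). Over all tested probe sets 6.56% were called in this comparison. The calls on GER1, GER3 and GER7 depended on single arrays, and none held without the variance trend. For GER1 and GER7 the lines also moved to opposite sides of both wild-type arrays, in orders found in 5.12% and 4.6% of all tested probe sets. Neither GER1 nor GER7 was called against the wild type in either line. For GER3 the overexpression arrays overlapped the wild type.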

How the results depend on the processing

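Of the GER calls, those between the lines held under quantile normalization, a pseudocount of 1 or 16, either filter and a fit on those lines' arrays alone. The GER3 call against the wild type held under quantile normalization, both pseudocounts and the stricter filter, and was lost with no filter, where more probe sets were tested (0 GER calls, 4 at an unadjusted p under 0.05; adjusted p = 0.0606), and with only the arrays of the 2 groups (adjusted p = 0.0624), where GER6 passed instead. Without the variance trend, GER calls were 0 in each comparison (1, 2 and 3 at an unadjusted p under 0.05 for overexpression, suppression and between the lines), and all calls fell from 15 to 0 (2019 at an unadjusted p under 0.05), 698 to 26 and 1992 to 69; the cause was not tested. With no filter, all calls were 425 for suppression and 1255 between the lines. With 1 array left out, the remaining array of its group was assumed to vary like the other groups. GER calls were then 0 to 1 for suppression and 0 to 3 between the lines, and all calls 5 to 36, 171 to 583 and 463 to 1410.

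Signs changed only for uncalled values, with 1 array left out and once under the block given last. For overexpression against the wild type the ranges were -0.025 to 0.43 (GER2), -0.37 to 0.25 (GER4), -0.61 to 0.24 (GER6), and for GER8 -0.28 to 0.36, -0.26 to 0.25 and -0.45 to 0.38. For suppression against the wild type they were -0.62 to 0.039 (GER2), -0.021 to 0.12 (GER5), and for GER8 -0.23 to 0.12 and -0.38 to 0.086. Between the lines they were -0.19 to 0.43 (GER4), -0.033 to 0.11 (GER5), and for GER8 -0.22 to 0.41, -0.12 to 0.40 and -0.21 to 0.63. The 4 overexpression and wild-type arrays share the numbers 1 and 2, but same-numbered arrays did not deviate together (correlation of deviations -0.015 across probe sets). With the replicate number as a block, GER calls stayed at 0 (2 at an unadjusted p under 0.05) and all calls were 9. A block over all 6 arrays, chosen after seeing the data, leaves suppression replicate 3 alone in its block, so its suppression contrasts rest on replicate 1. GER calls were then 0 for overexpression and 0 for suppression against the wild type (2 and 5 at an unadjusted p under 0.05; GER3 adjusted p = 0.102) and 1 between the lines (GER1, adjusted p = 0.0459; GER3 0.0603; GER7 0.164). All calls were 11, 99 and 319, and GER5 between the lines was -0.0052. Signal over background was not measured here, so no detection limit is given.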

Other observations

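The dimmest probe set of GER8 followed GER4 more closely than the other GER8 probe sets. The root mean square difference of centred log2 values was 0.08 to GER4, and 0.12 and 0.18 to the other GER8 probe sets, the one ending in _s_at and the one ending in _x_at. Among the 45 pairs of GER probe sets, the pair of GER4 and this GER8 probe set was the nearest and that of GER3 and GER7 the most distant, at 0.87.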
